A study of Mus musculus with 3 samples.

Results

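The cells described here are the melanocyte-marker cells of the mouse mitral valve, 115 of the 16383 cell barcodes of 1 deposited matrix, a share of 0.702% (95% exact binomial interval 0.580 to 0.842). A cell was taken as a member when at least 2 of 5 genes, Mlph, Pax3, Slc24a5, Gpr158 and Tfap2b, were detected in it, that is, had a value above 0. In addition, fewer than 2 of the fibroblast genes Prrx1, Col3a1 and Dpt, and no Ptprc, which encodes the leukocyte surface protein CD45, could be detected. The members were thus chosen by the measured values of these 9 genes, which are given below as a description only.

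Melanocytes are pigment cells that arise from the neural crest, and besides skin and hair they populate the heart, where pigmented patches are known in the valve leaflets of dark-coated mice. The transcription factor PAX3 acts with SOX10 on the gene of MITF, the regulator under which the pigment enzymes and the proteins of the melanosome, the organelle that makes and stores melanin, are expressed. MLPH links melanosomes to the actin motor that carries them to the cell's periphery, and SLC24A5 is a cation exchanger needed for melanin synthesis.

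The 3 samples listed with the matrix are mitral valves of mgR mice (B6.129-Fbn1tm2Rmz/J), 12 weeks old, which are homozygous in every tissue for a hypomorphic allele of Fbn1, the gene of fibrillin-1, and develop a myxomatous valve disease. The barcodes bear no mark of a mouse, genotype or library, and the study also profiled wild-type and rapamycin-treated mice and both cells and nuclei, so that which of these a barcode came from cannot be told apart. The matrix was therefore treated as 1 sample, without replicates, and no comparison of genotypes was possible. Every interval covers counting error only, and no p-value is given.

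The values were returned to unique molecular identifiers (UMIs, each counting 1 captured RNA molecule). The members held 559 to 14233 UMIs per cell, with a median of 4371 against 5353 in all other cells, and 567926 UMIs in sum. A level is the number of UMIs of a gene per 10000 UMIs of all cells of a set, and a ratio is the level in the members over that in all other cells. The matrix lists 3264 usable genes of chromosomes 1 to 3, and in the median cell 15.7% of the UMIs came from them. Of the 22 genes on a list of melanocyte genes, 5 are in it, the same 5 that form the rule. The pigment enzymes Tyr, Tyrp1 and Dct, the melanosome protein gene Pmel, and Mitf, Sox10 and Kit were not analysed here. The name melanocyte thus rests on the 5 genes of the rule, and the other genes below are given as a description of the cells.

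The promoter windows of 4 genes are shown first, since MITF is known to bind the letters TCATGTG and TCACGTG. Both motifs were searched on either strand in the 250 bases before each gene's start in RefSeq (GRCm38.p6). Of the 5 marker genes 4 have a window. Those of 2 marker genes hold 1 motif each: Slc24a5, at chr2:125067877-125068126 (plus strand), TCATGTG, and Mlph, at chr1:90914850-90915099 (plus strand), TCACGTG. Of the 20 genes with the highest ratios, described below, 15 have a window, and those of Kcnj13, at chr1:87394730-87394979 (minus strand), and Cdk15, at chr1:59256656-59256905 (plus strand), hold TCATGTG. Each sequence is written 5′ to 3′ on the gene's own strand, and the capitals mark the motif, which in all of them is read on the opposite strand.
Slc24a5: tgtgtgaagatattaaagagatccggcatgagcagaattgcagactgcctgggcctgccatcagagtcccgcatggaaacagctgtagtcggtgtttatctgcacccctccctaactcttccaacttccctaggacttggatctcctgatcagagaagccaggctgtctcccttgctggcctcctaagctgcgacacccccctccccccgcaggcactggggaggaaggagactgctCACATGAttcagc
Mlph: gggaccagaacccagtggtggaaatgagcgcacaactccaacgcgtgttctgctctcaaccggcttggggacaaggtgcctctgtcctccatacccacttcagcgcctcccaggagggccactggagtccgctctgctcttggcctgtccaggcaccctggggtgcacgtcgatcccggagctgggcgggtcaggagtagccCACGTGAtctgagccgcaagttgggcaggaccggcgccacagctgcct
Kcnj13: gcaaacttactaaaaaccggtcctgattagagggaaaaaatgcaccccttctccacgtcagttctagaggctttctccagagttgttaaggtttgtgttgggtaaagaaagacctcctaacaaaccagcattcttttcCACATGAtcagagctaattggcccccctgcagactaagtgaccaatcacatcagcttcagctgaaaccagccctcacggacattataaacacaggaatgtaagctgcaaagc
Cdk15: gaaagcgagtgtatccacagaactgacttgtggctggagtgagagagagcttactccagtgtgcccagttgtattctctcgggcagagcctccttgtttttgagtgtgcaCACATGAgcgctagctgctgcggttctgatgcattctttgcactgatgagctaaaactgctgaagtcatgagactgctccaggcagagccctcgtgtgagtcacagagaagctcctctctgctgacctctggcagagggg
The first base of the motif lies 13 bases before the start in Slc24a5, 48 in Mlph, 112 in Kcnj13 and 140 in Cdk15. Either motif occurs in 6.28% of all 32851 windows, TCATGTG in 3.25% and TCACGTG in 3.13%. A gene can have more than 1 window, and the 15 genes with high ratios have 21, of which 2 (9.52%) hold a motif. Among the 10 genes with the lowest ratios, 5 have a window. Of their 7 windows 1 (14.3%), of Arhgap15, holds a TCACGTG as well. A match describes these letters and is no evidence of binding.

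The 5 marker genes were spread unevenly over the members. Mlph was detected in 108 members (93.9%) against 4.43% of all other cells, at a level of 9.84 against 0.107. Pax3 was detected in 106 members (92.2%) against 0.191%, at a level of 18.6 against 0.0132. These were the markers found in most members. Slc24a5 followed with 90 members and levels of 9.67 and 0.0530. Gpr158, which encodes an orphan G protein-coupled receptor, was detected in 57 members, and Tfap2b, which encodes a transcription factor of the neural crest, in 15. Mlph was not particular to the members, since 11.1% of the 3479 cells with at least 2 of the 3 fibroblast genes and without Ptprc also had a Mlph UMI, at a level of 0.248.

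The members closest to the threshold are those with 2 marker genes, 25 in number, while 44 members had 3, 36 had 4 and 10 had all 5. Just outside it lie 1197 cells with 1 marker gene. A further 29 cells had 2 or more marker genes but were left out, 27 of them for fibroblast genes and 3 for Ptprc, with 1 left out for both. Of these 29, 18 had Mlph and Slc24a5 only and 6 had 3 or more marker genes.

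Of the 115 members, 9 had no Pax3 UMI, all of them with 2 marker genes, and these stood apart from the rest. Fmn1, which encodes an actin-nucleating formin, had 0 UMIs in them, where 3 UMIs would be a level of 0.466. In the 16 members with 2 marker genes including Pax3 its level was 18.7, and it was 43.5, 59.9 and 51.2 in the members with 3, 4 and 5. Members with Pax3 were thus far above those without in the level of Fmn1, also where only 2 marker genes had been found. Of the 16, 15 had an Fmn1 UMI. The 9 cells were deeper, with a median of 7078 UMIs against 2410 in the 16.
Aff3, which encodes a nuclear protein of the AF4/FMR2 family, showed the same order, with a level of 2.48 in the 9 members without Pax3 and 33.8 in the 16 with it. Plcb1, the gene of phospholipase C beta 1, ran the other way, at 5.43 in the 9 cells and 0.567 in the 16, against 7.20 in all other cells. Egfl7, an endothelial gene that the rule did not use, had UMIs in 5 of the 9 cells, at a level of 4.35, close to the 4.15 of all other cells. The 11 genes of the endothelial list summed to 14.4 (11.65 to 17.7) in the 9 cells, 9.64 (7.18 to 12.7) in the 16 and 5.25 in all members. The endothelial intervals of the 9 and the 16 cells thus overlap. The 7 fibroblast genes outside the rule summed to 11.95 in the 9 cells, 4.54 (2.91 to 6.75) in the 16 and 3.17 in all members.
The 6 cells with 3 or more marker genes that were left out, with a median of 11032 UMIs, had Fmn1 at 24.0 and Pax3 at 11.3 together with Prg4 (lubricin) at 21.7 and a fibroblast list sum of 38.7. The Prg4 UMIs lay in 3 of the 6 cells, and cells left out for fibroblast genes carry such genes by the rule. Whether they or the 9 cells are doublets was not tested.

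**Figure D1:**
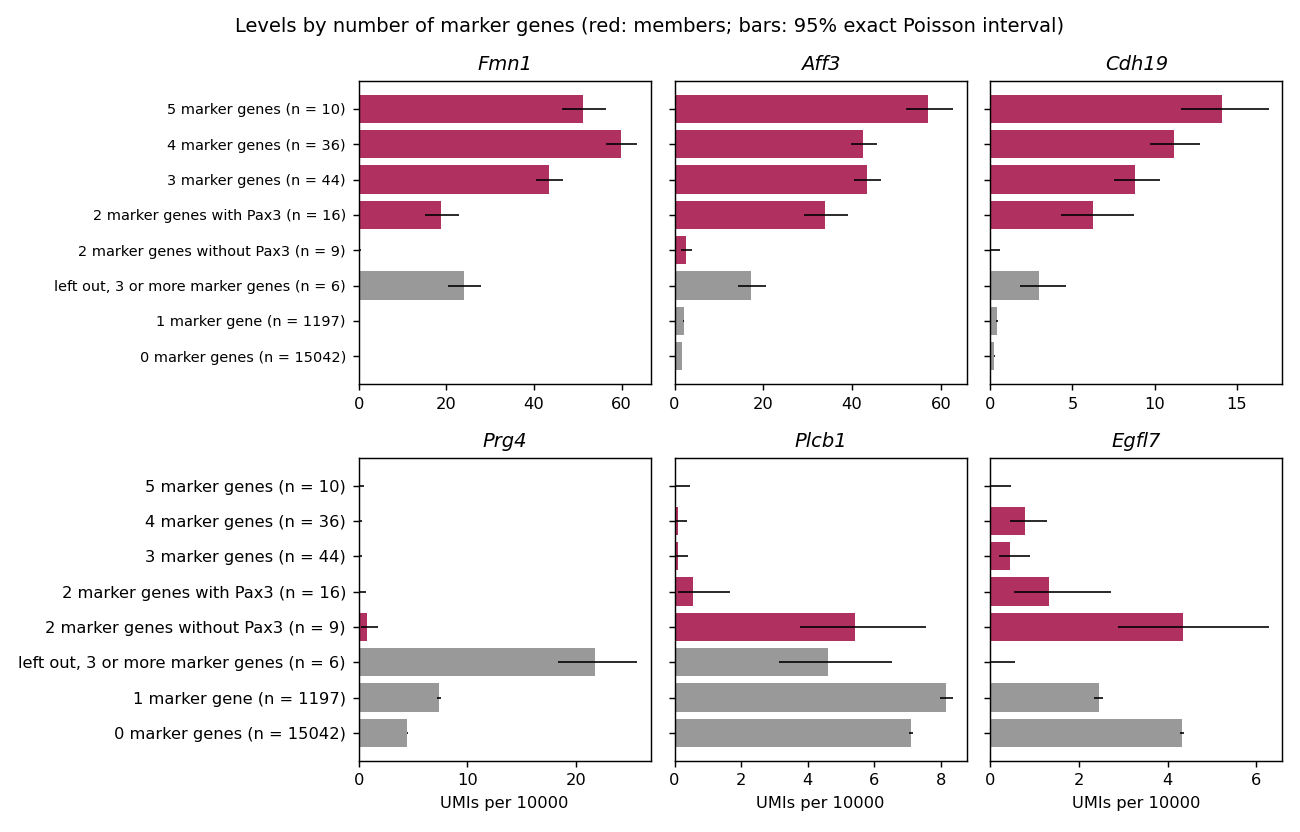
Levels (UMIs per 10000, linear axes) of 3 genes with high and 3 with low levels in the melanocyte-marker cells, by the number of marker genes detected; red bars are members, grey bars other cells, and lines 95% exact Poisson intervals. The 9 members without Pax3 lack Fmn1 and have Plcb1 at 5.43, whereas the 16 with Pax3 and 2 marker genes have Fmn1 at 18.7 and Plcb1 at 0.567.

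Cells were also clustered without the 5 marker genes. Of 11 clusters, 1 of 112 cells held 102 of the 115 members and none of the 9 without Pax3. Only 4 members with Pax3 lay outside it. Its 10 other cells were 7 that the rule had left out and 3 with 1 marker gene, and it held 0 cells without any marker gene. The members with Pax3 were therefore found together from genes other than the markers.

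Outside the 9 genes used by the rule, 826 genes were compared, each with at least 30 UMIs in the members or 30 expected there from the level in all other cells. Of these, 46 (5.57%) were at least 4-fold higher in the members and 60 (7.26%) at least 4-fold lower. The median ratio was 0.952. A gene that entered only through its UMIs in the members had to be higher in them, and 35 of the 46 were such genes. Among the 708 genes with 30 or more expected UMIs, a minimum that does not depend on the members' own values, 11 (1.55%) were higher and 60 (8.47%) lower, with a median ratio of 0.886, and the gene lists below are read against these shares. Without the 9 members that lack Pax3, a choice made after seeing the data, 49 genes were higher and 98 lower, so that the number of lower genes depended on these 9 cells.

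**Figure D2:**
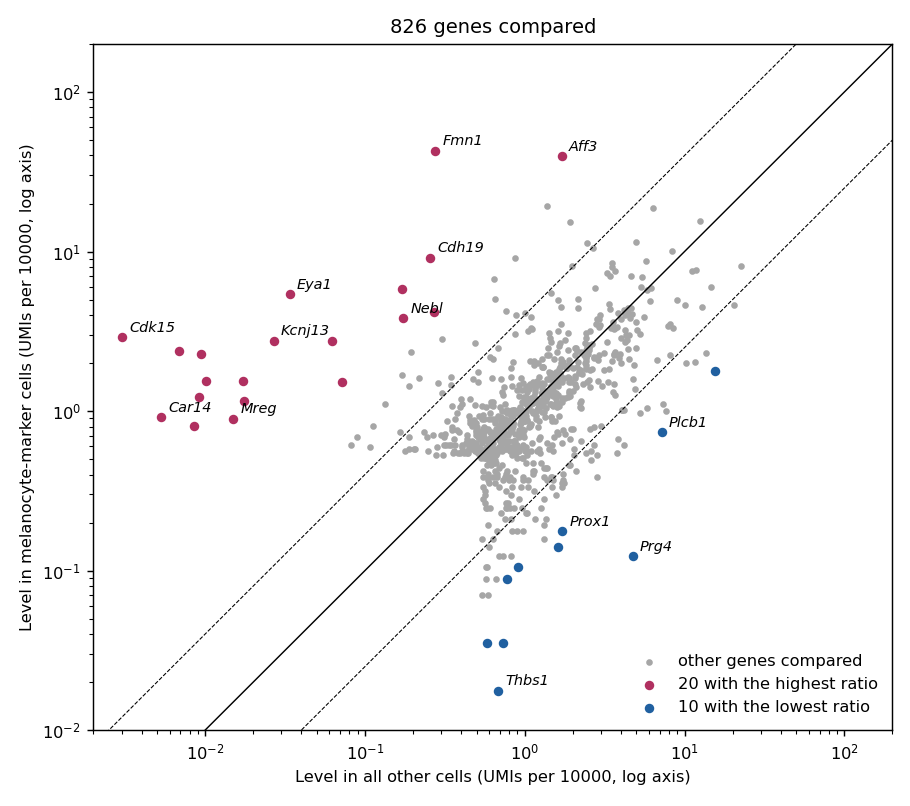
Level of each of the 826 genes in the melanocyte-marker cells against its level in all other cells, both in UMIs per 10000 on log axes; the solid line marks equal levels and the dashed lines 4-fold. The 20 genes with the highest ratios (red) lie 15.5- to 965-fold above equality and the 10 with the lowest (blue) 8.54- to 38.6-fold below it.

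The 20 genes with the highest ratios ranged from 15.5-fold for Mpzl1 to 965-fold for Cdk15. All 20 were at least 4-fold higher in each of the 2 ordered runs in which the barcodes are listed (105 members in the first, 10 in the second). Each was also at least 8.79 times as high as in whichever was highest of 3 other sets: the 724 other cells with Ptprc, the 3479 with at least 2 fibroblast genes and no Ptprc, and the 8787 with Egfl7 that are in neither of these sets. That set was the fibroblast-gene cells for 10 of the genes, the Ptprc cells for 8 and the Egfl7 cells for 2. The 20 genes were picked by their ratios in the same members, most of which lie in the first run. Except for Aff3, they were compared only through their UMIs in the members and thus had to be higher there. Their direction was therefore largely fixed by the choice, and neither the runs nor the 3 sets give separate support.

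**Figure D3:**
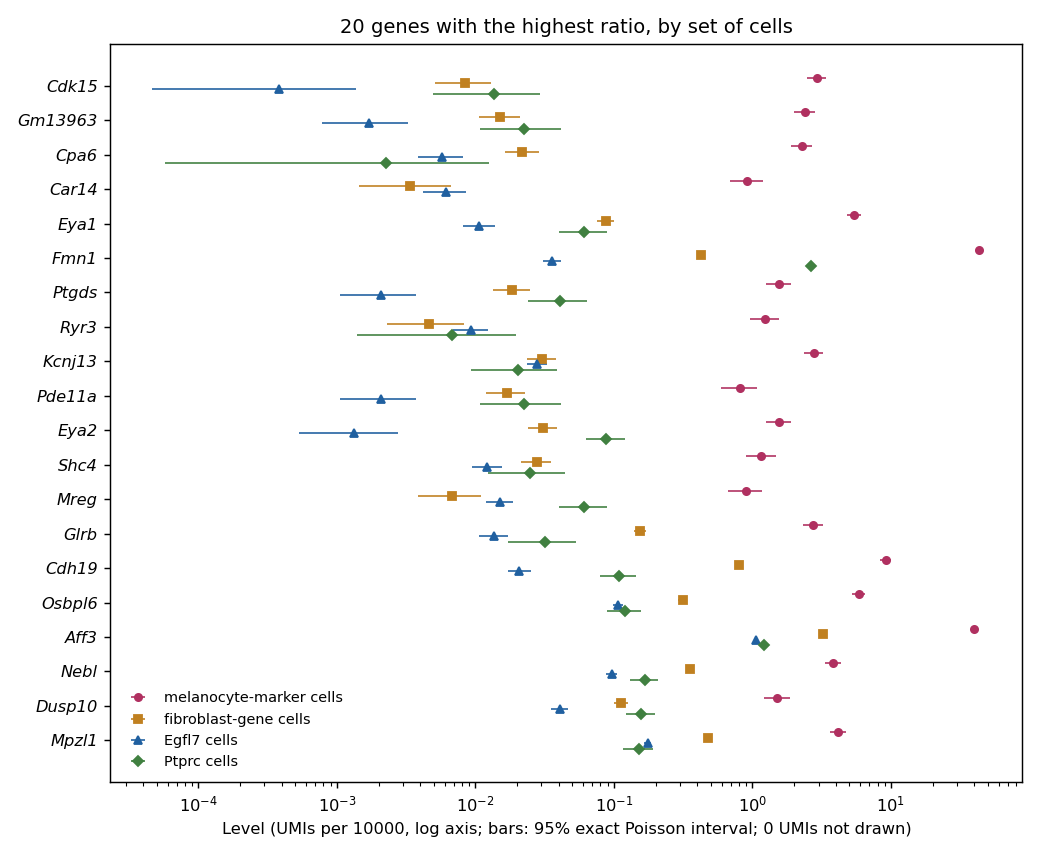
Levels (UMIs per 10000, log axis) of the 20 genes with the highest ratios in the melanocyte-marker cells and in cells with fibroblast genes, Egfl7 or Ptprc; lines are 95% exact Poisson intervals, and a set with 0 UMIs has no point. The melanocyte-marker cells lie to the right in every line, with Mpzl1 nearest to another set at 8.79 times its level.

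The genes are described below by their known roles, an order that was not tested for enrichment. Fmn1 (chr2:113327736-113716767, plus strand) had a UMI in 105 members. Over single members its level had a median of 34.2 and a highest value of 156, and over all members it was 42.9 (41.3 to 44.7) against 0.275 in all other cells, a ratio of 156 (148 to 165). Its antisense gene Gm13963 (chr2:113387107-113441094, minus strand), which lies inside Fmn1, had a ratio of 347 (257 to 473). Whether the counting used strand is not given in the sources used here, so that reads of the pair may not be separable.
Cdh19 (chr1:110888326-110977584), a cadherin of neural crest derivatives and Schwann cell precursors, was detected in 87 members, at 9.14 (8.37 to 9.96) against 0.257, a ratio of 35.5. Nebl, which encodes the actin-binding protein nebulette, had a ratio of 21.9, and Mpzl1, the gene of a cell-surface glycoprotein that binds the phosphatase SHP2, one of 15.5. Itga4, the integrin alpha 4 subunit, which is not among the 20, was 7.41-fold higher, at 1.62 against 0.219.

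Aff3 (chr1:38177326-38664955) had a UMI in 107 members, with a median of 41.5 and a highest value of 193 over single members. Its level was 39.5 (37.9 to 41.2) against 1.70, a ratio of 23.2. Eya1 and Eya2 encode coactivators of transcription with roles in the crest and the placodes. Eya1 was detected in 72 members, at 5.41 against 0.0339, a ratio of 160 (136 to 187), and Eya2 in 31 members, with a ratio of 90.4 (69.0 to 118). Both members of the pair were thus high, although Eya2 was found in fewer cells.

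Rapgef4 (chr2:71981240-72257474), of the cAMP signalling list and not among the 20, encodes EPAC2, which activates the small GTPase RAP1 when it binds cAMP, the messenger through which melanocortin acts on melanocytes. It had a UMI in 108 of 115 members, as many as Mlph, which was used to choose them. Its level over single members had a median of 17.7 and a highest value of 72.0, and over all members it was 19.2 (18.1 to 20.4) against 1.37, a ratio of 14.04 (13.2 to 14.9). In the cells with fibroblast genes it was 3.58. In the 9 members without Pax3 it was 0.466, from 3 UMIs.
Kcnj13 (chr1:87386363-87394729), which encodes the potassium channel Kir7.1 known from pigment patterns in fish and from the retinal pigment epithelium, had a UMI in 43 members. Its level was 2.76 (2.35 to 3.23) against 0.0269, a ratio of 103 (83.7 to 126). It lies inside Gigyf2 on the opposite strand, and Car14, Ryr3, Shc4, Aff3, Dusp10, Rapgef4, Hps3 and Cacnb4 also overlap listed genes of the other strand, as do the marker gene Slc24a5 and, of the low genes below, Prg4, Arhgap15, Prox1, Plcb1 and Itga8, so that the same limit holds for them.
Ryr3, a calcium release channel of internal stores, was detected in 42 members, with a ratio of 135 (97.1 to 187). Glrb, the beta subunit of the glycine receptor, had a ratio of 43.9 and was found in 61 members. Pde11a, which degrades cAMP and cGMP, was found in 15 members only, with a ratio of 95.1 (64.8 to 138).

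Cdk15, the gene of a little-studied cyclin-dependent kinase, was detected in 52 members and in 0.117% of all other cells, at 2.91 (2.48 to 3.38) against 0.00301. Its ratio of 965 (647 to 1485) rests on 29 UMIs in all other cells together. Ptgds, which makes prostaglandin D2, had a ratio of 152 (113 to 205) and was found in 40 members. Car14, a membrane-bound carbonic anhydrase, was at 0.916 against 0.00530, a ratio of 173 (115 to 260), in 33 members.
Shc4, an adaptor of receptor tyrosine kinases, was 66.6-fold higher, and Dusp10, a phosphatase of the stress kinases JNK and p38, 21.2-fold. Osbpl6, of the oxysterol-binding protein family, was found in 74 members, with a ratio of 34.4. Cpa6, the gene of an extracellular carboxypeptidase, was unlike these: it was detected in 12 members, and 66 of its 129 UMIs came from 1 cell. Without that cell its ratio fell from 240 to 119.

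The shares of cells were also compared after each cell had been thinned to 2000 UMIs, which left out 12 members and 1266 other cells. Fmn1 was then detected in 89.3% of members and 3.55% of other cells, Aff3 in 91.3% and 20.5%, Rapgef4 in 84.5% and 14.6%, and Cdh19 in 66.0% and 3.27%. The differences in share were thus present at 1 depth.

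**Figure D4:**
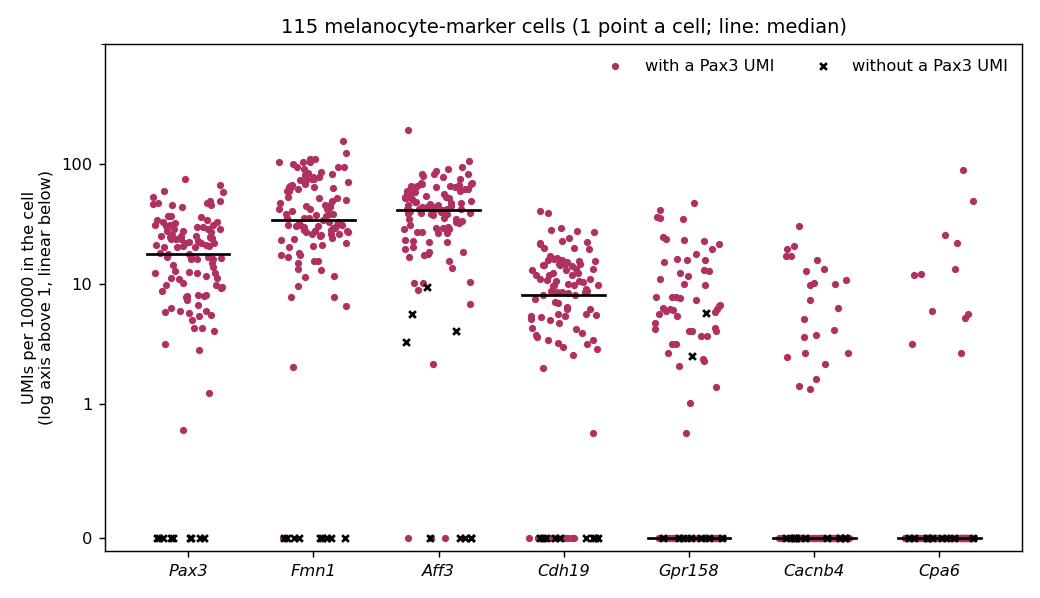
Level of 7 genes in each of the 115 melanocyte-marker cells (UMIs per 10000 in the cell, log axis above 1 and linear below); crosses are the 9 cells without a Pax3 UMI and lines the medians. Fmn1 and Aff3 were found in 105 and 107 cells, Cacnb4 in 25 and Cpa6 in 12, and all crosses of Fmn1 lie at 0.

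Among the genes of melanosomes and pigment outside the rule, 17 are in the matrix. Of the 5 with 30 or more expected UMIs, 0 were 4-fold higher and 0 lower, with a median ratio of 1.20 beside the 0.886 of all such genes. Another 3, Kcnj13, Mreg and Hps3, were compared only through their UMIs in the members and were thus bound to be higher there. Mreg, which encodes melanoregulin, a protein of melanosome transport, was detected in 30 members, at 0.898 (0.669 to 1.18) against 0.0150, a ratio of 60.04 (42.7 to 83.2). Hps3, of the BLOC-2 complex that sorts cargo to melanosomes, was at 1.59 against 0.471, a ratio of 3.36 (2.70 to 4.14), and Atrn, the gene of attractin, which is needed for agouti signalling in the coat, at 3.28 against 1.12, a ratio of 2.94 (2.53 to 3.40). Both lay short of 4-fold. Hps3 was about as high in the Ptprc cells, at 1.77 (1.65 to 1.90), while Atrn was at most 1.125 in the 3 other sets of cells. The gene of the agouti protein itself (symbol a) had 7 UMIs in the members.

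The list of neural crest factors went no single way. Of 16 listed genes 7 had 30 or more expected UMIs, with 0 higher, 2 lower and a median ratio of 0.724. Zeb2, a repressor with roles in crest and melanocyte differentiation, was at 11.5 against 4.94, a ratio of 2.33 (2.16 to 2.52), and was detected in 101 members. Zeb2 was higher in the Ptprc cells, at 18.8, and lower in the fibroblast-gene cells (8.14) and the Egfl7 cells (2.59). Bcl2, on which survival of melanocytes depends, was at 5.48 against 1.47, a ratio of 3.73 (3.32 to 4.17). Of the other sets of cells, Bcl2 was highest in the Ptprc cells, at 3.23. The 2 lower genes were Mecom, with a ratio of 0.170, and the neuregulin receptor gene Erbb4, with a ratio of 0.226. The latter fell to 0.139 without the 1 cell that held 104 of its 263 UMIs. Both were highest in the fibroblast-gene cells (31.1 and 60.6), which the rule leaves out, so that their low ratios are in part fixed by it. Against the Egfl7 cells Mecom was lower (2.31 against 6.21) and Erbb4 higher (4.63 against 1.21). The 9 members without Pax3 held 69 of the 131 Mecom UMIs and 206 of the 263 Erbb4 UMIs.

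Of 4 glial genes listed, only Cdh19 could be compared, through its UMIs in the members. Scn7a had 1 UMI where 22.9 were expected, but it was highest in the fibroblast-gene cells (1.34), which the rule leaves out. In the Egfl7 cells Scn7a was at 0.0174, beside 0.0176 in the members. Cadm3 had 0 UMIs where 0.855 were expected, so that a low level of Cadm3 could not have been seen. The 8 neuronal genes, none of which could be compared, had 18 UMIs in sum where 48.6 were expected. Of them 5 were at 0, among them Syt2, Scn3a and Scn9a with 2.11, 0.236 and 0.0118 UMIs expected, too few for a lower level to be seen.

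Of 21 ion channel genes 3 had 30 or more expected UMIs, with 0 higher, 2 lower and a median ratio of 0.196. Another 3 were compared only through their UMIs in the members, and all of these were at least 4-fold higher: Kcnj13, Ryr3 and Cacnb4, an auxiliary subunit of voltage-gated calcium channels, at 2.82 against 0.302, a ratio of 9.33 (7.91 to 10.9). The lower ones were the potassium channel gene Kcnt2, at 1.11 against 7.31, and Cacnb2, at 0.246 against 1.26. Both were highest in the fibroblast-gene cells (14.8 and 2.39), which the rule leaves out. Cacnb2 had UMIs in 2 members, 10 of its 14 in 1 cell, and 43 of the 160 Cacnb4 UMIs lay in 1 cell. The ratios of the related subunits Cacnb4 and Cacnb2 lay in opposite directions, which the choice of genes and cells in part fixed.
Of 12 genes of cAMP signalling outside the rule, 7 had 30 or more expected UMIs. Rapgef4 was higher and Pde1a, a calmodulin-dependent phosphodiesterase, lower, with a ratio of 0.137 and a list median of 1.12. Pde1a was likewise highest in the fibroblast-gene cells, at 6.2. Gnas, the stimulatory G protein subunit, was at 2.41 against 2.54.

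Of 12 genes of the PI3K and MAPK list 10 had 30 or more expected UMIs, with 0 higher, 3 lower and a median of 0.660. The lower ones were Mecom, Erbb4 and the growth factor gene Fgf2, the last with a ratio of 0.181. The limits given above for Mecom and Erbb4 hold here as well. Dusp10 was compared through the members alone. Of 11 integrin and laminin genes 6 had that minimum, with 0 higher, Itga8 and Lama5 lower and a median of 0.399, while Itga4 was compared through the members alone. Itga8 was highest in the fibroblast-gene cells, at 2.36, which the rule leaves out. The lysosome list had 1 of 8 genes compared, which was neither, with a ratio of 1.20.

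The 10 genes with the lowest ratios were 8.54- to 38.6-fold lower. The rule leaves out cells with fibroblast genes or Ptprc, so that low levels of other genes of such cells are in part fixed by it. Of the 10, 6 were highest in the fibroblast-gene cells, among them Thbs1 (thrombospondin-1), Prg4, Plcb1, Itga8 and Fap. Arhgap15, a regulator of RAC1, was highest in the Ptprc cells, at 15.05. Both exclusions thus bear on these 7 genes. Itga8, Fap and Arhgap15 were not lower in the members (0.0880, 0.106 and 0.0352) than in the Egfl7 cells (0.0735, 0.0983 and 0.0225). The others of the 7 were lower than in the Egfl7 cells, among them Thbs1 (0.0176 against 0.202) and Prg4 (0.123 against 0.315).
Nuak2, Tgfb2 and Prox1 were highest in the Egfl7 cells, which the rule did not leave out. Prox1, a transcription factor of lymphatic and valve endothelium, was at 0.176 (0.0844 to 0.324) against 2.70 in Egfl7 cells. Tgfb2, the ligand TGF-β2, was at 0.141 (0.0608 to 0.278) against 2.08 there, and the kinase gene Nuak2 at 0.0352, from 2 UMIs, against 0.778.
Plcb1 was found in most other cells of the valve. It was detected in 12 members and 65.1% of all other cells, at 0.740 (0.533 to 0.9996) against 7.20, and it was at 5.69 in the Egfl7 cells. Of its 42 UMIs in the members, 35 lay in the 9 cells without Pax3.

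Markers of other cells were mostly lower in the members than in all other cells together, but not at 0. The 7 fibroblast genes outside the rule summed to 3.17 (2.72 to 3.67) in the members and 17.3 in all other cells, with 3 of 5 genes compared lower, among them Postn at 0.546 against 3.76 and Fbn1, the gene altered in mgR mice, at 0.528 against 2.82. The 11 endothelial genes summed to 5.25 (4.67 to 5.88) against 19.0, with 2 of 5 lower and a median ratio of 0.274. The sum was 0.990, 4.19 and 3.68 in the members with 5, 4 and 3 marker genes, and 4.15 in the fibroblast-gene cells. In the 16 members with 2 marker genes including Pax3 it was 9.64.
The 9 leukocyte genes outside the rule summed to 0.299 (0.174 to 0.479) against 1.28, a level set by the Ptprc cells at 24.4, while the sum was 0.122 in the fibroblast-gene cells and 0.136 in the Egfl7 cells. The members thus lay above both sets without Ptprc, but on 17 UMIs only. Of these, 9 were of Cd84 and 4 of Mrc1, with 3 of the Mrc1 UMIs in 1 cell, while 4 of the genes were at 0. The 12 mitotic genes had 5 UMIs in the members where 18.9 were expected, a level of 0.0880 (0.0286 to 0.206) against 0.334, and 8 of them were at 0, among them Aspm, Bub1 and Ccna2. Of 4 cardiomyocyte genes Tnnt2 and Mybpc3 were at 0, where 1.92 and 0.171 UMIs were expected, too few for a lower level to be seen. Ttn had 14 UMIs in 9 members where 43.8 were expected, a ratio of 0.320, and Xirp2 had 1 where 28.8 were expected. The pericyte gene Rgs5 was at 0 where 1.92 UMIs were expected. The 3 keratinocyte genes summed to 1 UMI, with 0.879 expected. Egfl7 was found in 16 members (13.9%) against 57.6% of all other cells. Free RNA gives UMIs in cells that do not express a gene, and its part in these low levels was not tested.

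Few genes were 4-fold or more apart between members with and without Gpr158, though smaller differences were found. Over 373 genes with at least 60 UMIs in all members the median ratio of the 57 cells with it to the 58 without was 0.996, and 1 gene was at least 4-fold higher and 1 lower. The former was Cacnb4, at 4.69 (3.96 to 5.52) in 21 cells against 0.545 (0.298 to 0.915) in 4. Without the cell that held most of its UMIs, the level was 3.47. The lower gene was Igfbp5, an insulin-like growth factor binding protein, at 0.643 against 3.66.
Of the 9 members without Pax3, 7 also lacked Gpr158. Among the members with Pax3, 55 with Gpr158 and 51 without, Cacnb4 was at 4.78 against 0.707, Igfbp5 at 0.622 against 3.03, Eya1 at 7.66 against 3.69 and Pax3 itself at 19.4 against 23.4. Vim, the gene of vimentin, was at 1.96 against 7.79 over all members, but at 1.93 against 3.33 among those with Pax3. These genes were named after their values had been seen, and the cells with Gpr158 were deeper, with a median of 5113 UMIs against 3757.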

How the data were processed

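Mitral valve libraries of the 10x Genomics 3′ kind were processed by the authors with Cell Ranger 7.1.0 on mm10 (per the processing notes) and Seurat 4.3.0, and the libraries were pooled in 1 matrix. Harmony 0.1.1 acted on principal components and left the values unchanged. Each deposited value is the natural log of 1 plus the gene's share of the cell's UMIs, scaled to 10000. From them UMIs and cell totals were recovered, all whole within 0.02, with 503 to 23127 UMIs per cell (median 5349). Counts had been planned for, but no count model was fitted for want of replicates. Among 3265 genes, 1 with 11958 empty values was left out. The barcodes form 2 runs of 14222 and 2161 cells, which share 11 barcodes, none of a member.

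Levels have 95% exact Poisson intervals, shares exact binomial ones, and ratios conditional exact ones (scipy 1.17.1). UMIs of 1 cell are not independent, so that true errors are larger. The named genes are, outside the rule, the 20 with the highest ratio among those with 30 or more member UMIs and the 10 with the lowest among those with 30 or more expected. Lists are described by counts past 4-fold and by medians over their genes with 30 or more expected UMIs. Some listed or named genes are not reported here. The members and the lists were chosen with earlier results of these data known. Doublets were not called. Members with Egfl7 were left out as an alternative instead. Clusters used 2000 variable genes without the marker genes, 50 principal components, 15 neighbours and Leiden resolution 0.5 (scanpy 1.11.5, igraph 0.11.9, random seed 1). Gene positions are from GENCODE M21 (GRCm38), matched by symbol for 3244 genes, and promoter windows from RefSeq. The steps were tested on simulated data. The scripts ran under Python 3.11.15 with pandas 2.3.3, numpy 2.4.6 and, for the plots, matplotlib 3.10.9.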

Additional observations from a re-analysis of the deposited data

How the results depend on the processing

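The share of members, 0.702%, was 0.549% with at least 3 marker genes and 0.463% in the second barcode run alone (10 members). The 46 genes at least 4-fold higher were 25 in that run, 103 at 2-fold, 27 at 8-fold and 25 with a minimum of 100 UMIs. The 60 lower genes were 97 with at least 3 marker genes, 100 with Slc24a5 left out of the rule, 102 with the members with Egfl7 left out, 92 in the cluster made without the marker genes, 98 without the members that lack Pax3, 13 in the second run, 151 at 2-fold, 12 at 8-fold, 113 with a minimum of 10 UMIs and 24 with one of 100. The cause of these differences was not tested.

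For the 30 named genes, 474 of 480 values over 16 alternatives were past 4-fold in the direction given, and 0 reversed. These genes were picked by their ratios in the same cells, most of which the alternatives share. Their directions were thus largely fixed by the choice, and the counts are no separate support. The other 6 were Fap in the second run, with a ratio of 0.282, and, in the cluster, Thbs1 (0.437), Prg4 (0.567), Arhgap15 (0.252), Itga8 (0.263) and Fap (0.267). Without the member with most UMIs of the gene, Prg4 went from 0.0260 to 0.0114 and Itga8 from 0.114 to 0.0229, and Thbs1 had 0 UMIs. The alternatives without the members that lack Pax3, without that top cell and with Gpr158 split among members with Pax3 were chosen after seeing the data. No paired analysis was possible because the matrix is 1 pooled sample. With 10 members in the second run, low genes there rest on few UMIs.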
